A study of Arabidopsis thaliana with 18 samples.

Results

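The abscisic acid synthesis genes are the 9 loci NCED2 (AT4G18350), NCED3 (AT3G14440), NCED5 (AT1G30100), NCED6 (AT3G24220), NCED9 (AT1G78390), ABA1 (AT5G67030), ABA2 (AT1G52340), ABA3 (AT1G16540) and AAO3 (AT2G27150), taken by locus identifier from the 33602 loci of the deposited tables. Their levels come from RNA sequencing of poly(A)-selected RNA from whole seedlings of Arabidopsis thaliana grown on Murashige-Skoog agar without sugar. The 6 groups were the wild type (WT, accession Col-0), the T-DNA insertion line ahl10-1 (Salk_073165) and the T-DNA insertion line rrp6l1-2 (Salk_027601), each kept at a control water potential of -0.25 MPa or moved to low water potential, called stress here, at -0.7 MPa. Low water potential was imposed with agar infused with polyethylene glycol 8000, a polymer that withholds water from the plant. All seedlings were 7 days old at transfer and 11 days old at harvest, 96 h later, and each group has 3 libraries described as separate biological experiments. Each mutation is represented by 1 allele, and both control and stress seedlings of a genotype carry it. AHL10 encodes an AT-hook DNA-binding protein, and RRP6L1 encodes a relative of an exosome-associated RNA exonuclease.

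Abscisic acid is the hormone by which plants close stomata, hold seeds dormant and adjust growth when water is short. It is made from carotenoids. ABA1, zeaxanthin epoxidase, converts zeaxanthin to violaxanthin in the plastid. The NCED enzymes (9-cis-epoxycarotenoid dioxygenases) cleave the 9-cis forms of violaxanthin and neoxanthin to xanthoxin, the step regarded as rate-limiting, and NCED3 is the family member best known for drought. NCED6 and NCED9 are best known from developing seeds. ABA2, a short-chain dehydrogenase, turns xanthoxin into abscisic aldehyde in the cytosol, and AAO3, an aldehyde oxidase, oxidizes the aldehyde to abscisic acid. AAO3 needs a molybdenum cofactor that ABA3 sulfurates.

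The 5 NCED genes each have 1 exon in the RefSeq annotation of assembly TAIR10.1. NCED2 lies on chromosome 4 (10142255 to 10144646, plus strand), NCED3 on chromosome 3 (4831286 to 4834015, minus strand) and NCED6 on chromosome 3 (8761419 to 8763303, plus strand). NCED5 (10571310 to 10573365, plus strand) and NCED9 (29490705 to 29492875, minus strand) are both on chromosome 1. The other genes are split: ABA1 (chromosome 5, 26753469 to 26757402, minus strand) has 16 exons, ABA2 (chromosome 1, 19489794 to 19491650, minus strand) has 2, ABA3 (chromosome 1, 5659370 to 5665488, plus strand) has 20 to 21 and AAO3 (chromosome 2, 11601727 to 11608450, plus strand) has 9 to 11 over its transcripts. ABA2 overlaps AT1G52330 on the opposite strand by 121 bases and AT1G07803 by 349 bases, and AAO3 overlaps AT2G27160 by 985 bases. AT1G52330 held 147 to 426 reads per library and AT2G27160 held 0 to 2, and reads in the overlap with AT1G52330 are uncertain for ABA2, since the strand setting of the counting is not given in the sources used here. No read of any of the 9 genes was recorded as mapping to several places.

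The 250 bases before the annotated start are shown for NCED3, the most abundant NCED transcript, and for the 5 genes whose window holds one of 4 short motifs named here. The motifs were ACGTG, the core of the abscisic acid response element, CCGAC, the core of the dehydration response element, CACTTG, which the factor NGA1 is known to bind, and CAATNATTG, bound by HD-Zip I factors. Each was searched on both strands. Sequences are from RefSeq, assembly TAIR10.1, read 5′ to 3′ on the strand of the gene, with motif bases in capitals. CACGT is ACGTG read on the other strand, and CACGTG holds ACGTG once on each strand, the matches overlapping.
NCED3 (chr3:4834016-4834265, minus strand): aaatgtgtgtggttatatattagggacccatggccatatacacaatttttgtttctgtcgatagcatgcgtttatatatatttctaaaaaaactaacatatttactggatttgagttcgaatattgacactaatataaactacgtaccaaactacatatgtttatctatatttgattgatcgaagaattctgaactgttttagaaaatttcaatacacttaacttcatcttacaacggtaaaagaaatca
NCED9 (chr1:29492876-29493125, minus strand): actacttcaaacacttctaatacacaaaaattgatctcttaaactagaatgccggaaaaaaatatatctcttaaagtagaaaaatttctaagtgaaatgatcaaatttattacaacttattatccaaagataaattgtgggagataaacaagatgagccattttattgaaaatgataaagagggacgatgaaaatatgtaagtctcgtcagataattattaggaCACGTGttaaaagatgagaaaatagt
ABA1 (chr5:26757403-26757652, minus strand): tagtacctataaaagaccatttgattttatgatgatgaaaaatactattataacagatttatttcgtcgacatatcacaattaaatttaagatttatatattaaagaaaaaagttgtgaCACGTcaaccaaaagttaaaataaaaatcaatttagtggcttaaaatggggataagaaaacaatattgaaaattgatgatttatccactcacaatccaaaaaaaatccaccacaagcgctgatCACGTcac
ABA2 (chr1:19491651-19491900, minus strand): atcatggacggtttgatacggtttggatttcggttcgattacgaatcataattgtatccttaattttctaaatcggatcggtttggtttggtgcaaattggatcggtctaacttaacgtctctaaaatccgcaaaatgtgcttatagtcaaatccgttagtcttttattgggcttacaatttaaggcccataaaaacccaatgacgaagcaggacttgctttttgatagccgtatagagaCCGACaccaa
ABA3 (chr1:5659120-5659369, plus strand): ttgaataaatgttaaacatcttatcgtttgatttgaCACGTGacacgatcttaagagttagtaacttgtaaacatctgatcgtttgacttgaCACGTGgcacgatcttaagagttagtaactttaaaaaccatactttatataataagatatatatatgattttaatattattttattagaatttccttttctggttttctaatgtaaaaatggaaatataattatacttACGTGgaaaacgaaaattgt
AAO3 (chr2:11601477-11601726, plus strand): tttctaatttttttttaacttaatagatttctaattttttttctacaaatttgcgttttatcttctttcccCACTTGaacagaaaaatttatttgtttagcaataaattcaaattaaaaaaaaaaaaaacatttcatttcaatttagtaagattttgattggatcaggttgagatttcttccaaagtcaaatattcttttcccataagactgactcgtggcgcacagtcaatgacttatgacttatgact
ACGTG was present in this window of NCED9, ABA1 and ABA3, 3 of 9 genes, and of 22.9% of 27443 gene starts. CCGAC was present in ABA2 alone, 10 bases before the start, against 12% of gene starts, and CACTTG in AAO3 alone, 179 bases before the start, against 9.39%. CAATNATTG was present in 0 of 9 genes and 0.918% of gene starts. ABA3 holds CACGTG at 214 and 158 bases before its start, and 0.875% of gene starts have at least 2 copies. The pair lies in a direct repeat: a stretch of 55 bases starting 238 bases before the start recurs 56 bases further on with 52 matching bases. NCED9 holds CACGTG once, 26 bases before its start, as do 6.49% of gene starts at least once. No match was found in the NCED3 window, which says only that these letters are absent from these 250 bases. A match describes the sequence and does not show a site in use.

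Libraries held 57996104 to 68555138 reads in genes. The label check held: AHL10 transcripts were lower in ahl10-1 than in WT (log2 fold change -1.01 at control and -1.09 at stress), and RRP6L1 transcripts were lower in rrp6l1-2 (-1.90 and -2.48). Levels are given as CPM, reads scaled to a common library total after TMM scaling, which serves to compare libraries for 1 gene. Levels of different genes are compared as deposited RPKM, which divide reads by gene length and by the library total. Of the 33602 loci, 22795 passed the filter on low counts, among them 8 of the 9 genes. A change is said to be called, or to rise or fall, where edgeR's quasi-likelihood test over all genes that passed gave an adjusted p under 0.05.

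In every group the pathway was steeply graded in transcript level. ABA1 was the most abundant, with 107.7 ± 10.4 RPKM in WT at control (mean ± SD, n = 3), followed by ABA2 at 15.3 ± 0.768, ABA3 at 5.09 ± 0.475 and AAO3 at 3.46 ± 0.0838 RPKM. NCED3 followed at 1.73 ± 0.908 RPKM, NCED9 at 0.239 ± 0.150, NCED2 at 0.0890 ± 0.0379 and NCED5 at 0.0534 ± 0.00771 RPKM. ABA1 thus stood 7.02 times above ABA2, and ABA2 3.01 times above ABA3. The order ABA1, ABA2, ABA3, AAO3, NCED3, NCED9 was the same in all 6 groups by group mean, and the libraries of ABA1, ABA2, ABA3 and AAO3 overlapped with no neighbour among these 4 genes within a group.

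AAO3 and NCED3 were neighbours whose libraries overlapped in WT stress and ahl10-1 stress, and not in the other 4 groups. NCED9, NCED2 and NCED5 overlapped with their neighbours in all 3 control groups. In ahl10-1 stress NCED5 and NCED2 overlapped and changed places in the order. NCED3 made up 73.6% to 89.6% of the summed RPKM of the 5 NCED genes in a library, with a median of 84.0%, and NCED9 made up 4.29% to 16.5%. The ratio of ABA1 to the summed NCED level in RPKM ranged from 20.1 to 142 over the 18 libraries. It lay between 38.1 and 142 in the 9 control libraries and between 20.1 and 37.8 in the 9 stress libraries, so that the 2 sets did not overlap.

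**Figure D1:**
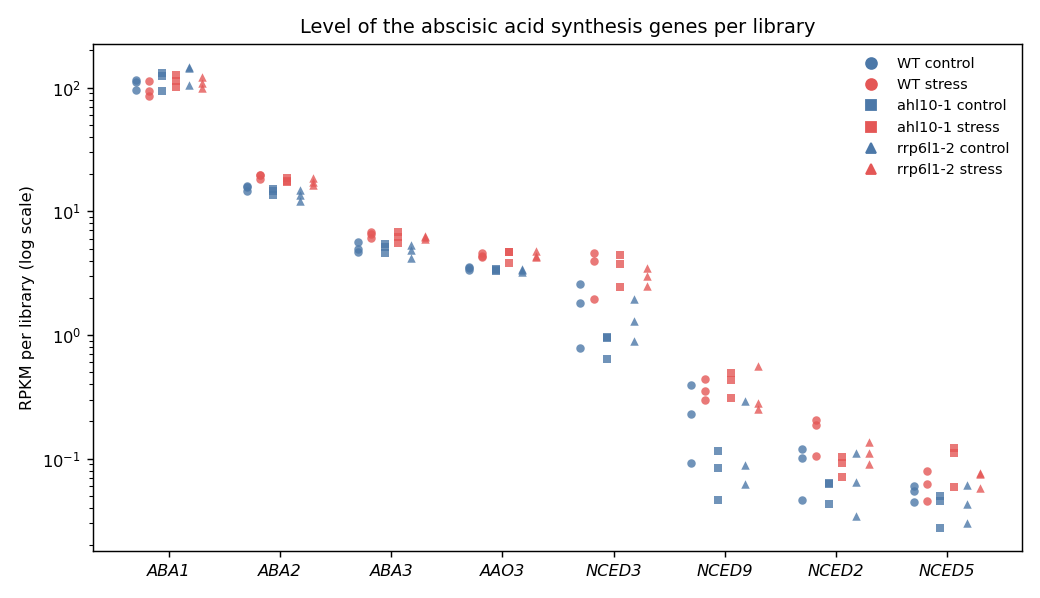
Level of 8 abscisic acid synthesis genes in RPKM on a log axis, 1 point per library, for the 6 groups (colour for treatment, marker for genotype); NCED6, listed at 0 in every library, is left out. ABA1 lies between 85.3 and 147 RPKM in all libraries and NCED5 between 0.0276 and 0.121.

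NCED6 had 0 reads in all 18 libraries. A count of 0 allows up to 3 reads per library, or 0.0438 to 0.0517 CPM in these libraries, for counting error only.

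NCED3 transcripts rose at low water potential in ahl10-1, and the estimates in WT and rrp6l1-2 pointed the same way without passing the test. In WT, NCED3 stood at 6.52, 1.94 and 4.36 CPM in control replicates 1, 2 and 3 (430, 118 and 278 reads) and at 9.29, 10.9 and 4.67 CPM under stress (683, 699 and 284 reads). The WT groups overlapped, because stress replicate 3 lay below control replicate 1. The log2 fold change was 0.95 ± 0.405 (SE; edgeR adjusted p = 0.0989; 95% interval 0.07 to 1.83). In whole seedlings, fewer cells of a type and less RNA per cell cannot be told apart, here and in every comparison that follows.

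In ahl10-1, NCED3 stood at 2.33, 1.63 and 2.60 CPM at control (158, 103 and 142 reads) and at 10.5, 9.15 and 6.30 CPM under stress (726, 583 and 367 reads). Every stress library lay above every control library. The share of all tested genes whose groups separate this way was not counted, here or in the comparisons that follow. The log2 fold change was 1.99 ± 0.423 (edgeR adjusted p = 0.00265), and the call was kept when any 1 of the 6 libraries was left out. In rrp6l1-2, NCED3 stood at 3.42, 2.26 and 5.38 CPM at control (194, 142 and 295 reads) and at 8.34, 7.38 and 6.12 CPM under stress (545, 448 and 377 reads). These groups did not overlap either, and the log2 fold change of 0.98 ± 0.409 missed the threshold (edgeR adjusted p = 0.0839).

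The spread of NCED3 among libraries of a group was wide. Its within-group SD of log2 CPM was 0.561, at the 92.1 percentile of the genes tested, whose median was 0.147. Control replicate 2 was the lowest control library and stress replicate 3 the lowest stress library in each of the 3 genotypes. Which libraries entered the test decided the WT call: without WT control replicate 1 the log2 fold change was 1.39 (edgeR adjusted p = 0.0362), and without WT stress replicate 3 it was 1.24 (edgeR adjusted p = 0.0451). The other 4 single omissions in WT gave no call, with log2 fold changes down to 0.61 and edgeR adjusted p up to 0.295. In rrp6l1-2 the change was 1.36 without control replicate 3 (edgeR adjusted p = 0.0431). There the other 5 omissions gave no call, with changes down to 0.71 and edgeR adjusted p up to 0.25. DESeq2 called NCED3 in WT (adjusted p = 0.0460) and in rrp6l1-2 (adjusted p = 0.0412) with all libraries. In the authors' deposited table for WT the NCED3 log2 fold change was 0.56 with an adjusted p of 0.239.

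**Figure D2:**
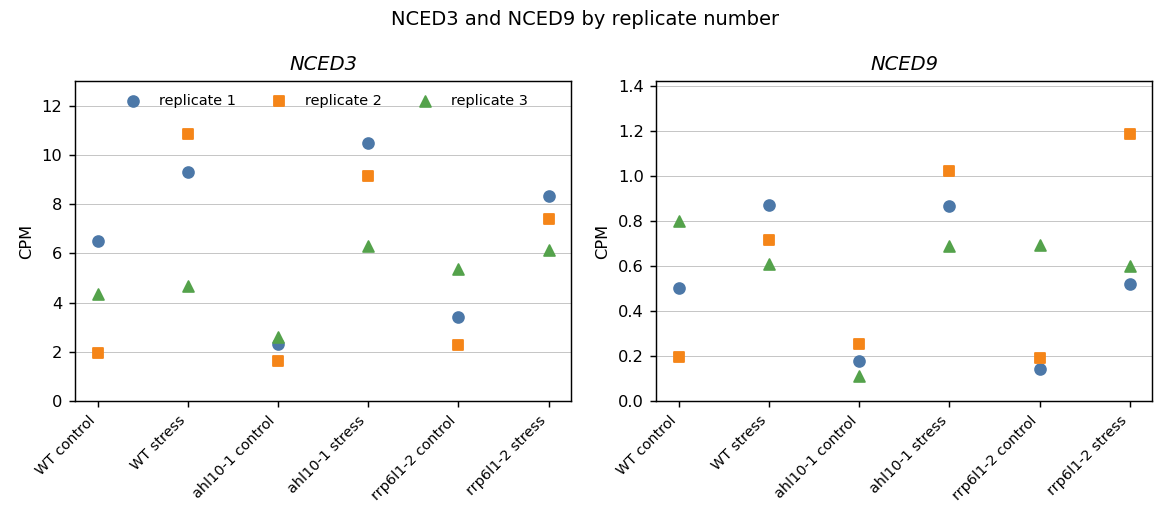
NCED3 and NCED9 in CPM in each of the 18 libraries, 1 point per library, with marker and colour giving the replicate number in the labels. NCED3 replicate 2 is the lowest control point and replicate 3 the lowest stress point in each genotype.

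NCED9, whose group means in RPKM lay 7.26 to 10.3 times below those of NCED3, rose at low water potential in ahl10-1. There it stood at 0.177, 0.254 and 0.110 CPM at control (12, 16 and 6 reads) and at 0.866, 1.02 and 0.687 CPM under stress (60, 65 and 40 reads). The groups did not overlap, and the log2 fold change was 2.23 ± 0.577 (edgeR adjusted p = 0.00811), kept when any 1 library was left out.

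In WT, NCED9 stood at 0.5004, 0.197 and 0.800 CPM at control (33, 12 and 51 reads) and at 0.871, 0.715 and 0.608 CPM under stress (64, 46 and 37 reads). Control replicate 3 lay above 2 of the 3 stress libraries. The log2 fold change was 0.55 ± 0.522 (edgeR adjusted p = 0.477; 95% interval -0.59 to 1.69). In rrp6l1-2, NCED9 stood at 0.141, 0.191 and 0.693 CPM at control (8, 12 and 38 reads) and at 0.520, 1.19 and 0.601 CPM under stress (34, 72 and 37 reads). Control replicate 3 stood apart from the other 2 controls, and the log2 fold change was 1.18 ± 0.546 (edgeR adjusted p = 0.116). Without that library it was 2.19 (edgeR adjusted p = 0.0116). The other 5 single omissions gave no call, with changes down to 0.72 and edgeR adjusted p up to 0.403.

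Because NCED9 is known from seeds, seed transcripts are given beside it. The summed level of the 6 seed markers CRA1, OLEO1, SESA3, EM1, EM6 and ABI3 was 0.713 to 3.36 CPM in the control libraries of WT and ahl10-1 and 2.03 to 3.09 CPM in their stress libraries. In rrp6l1-2 it was 14.3, 27.1 and 1.44 CPM at control and 1.76, 8.89 and 4.69 CPM under stress. CRA1 made up most of the highest sum, at up to 25.5 CPM. EM1, EM6, OLEO1, ABI3 and SESA3 reached at most 2.06, 1.5, 0.446, 0.414 and 0.0329 CPM in any library. In rrp6l1-2 against WT at control the seed marker log2 fold changes ran from -0.49 to 4.5, with a median of 0.13 and 0 called. SESA3, a seed storage protein gene, was at 0 in every group except rrp6l1-2 stress. The rrp6l1-2 control library with the highest NCED9 level had the lowest seed marker sum of its group. In rrp6l1-2 stress the library with the highest NCED9 level had the highest sum. Whether NCED9 reads go with seed transcripts was not tested. EM1, which encodes a late embryogenesis protein, was the seed marker called, with log2 fold changes of 2.97 in WT, 3.04 in ahl10-1 and 3.75 in rrp6l1-2. Of all tested genes 12.6%, 15.7% and 14.9% rose in these comparisons.

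NCED2 and NCED5 lay near the limit of what this depth can resolve. NCED2 had 4 to 24 reads and NCED5 had 4 to 16 reads in a library. NCED2 was not called in any genotype, with log2 fold changes of 0.83 ± 0.435 in WT, 0.57 ± 0.487 in ahl10-1 and 0.56 ± 0.464 in rrp6l1-2 (edgeR adjusted p = 0.178, 0.407 and 0.386). NCED5 was not called in WT (0.17 ± 0.433, edgeR adjusted p = 0.813) or in rrp6l1-2 (0.53 ± 0.443, edgeR adjusted p = 0.396). NCED5 in ahl10-1 had 4, 7 and 6 reads at control and 16, 8 and 16 under stress, and its log2 fold change of 1.17 ± 0.429 passed narrowly (edgeR adjusted p = 0.0497). Of the 6 single-library omissions 5 lost that call: leaving out control replicate 1, 2 or 3 or stress replicate 1 or 3, with adjusted p from 0.0727 to 0.176. With the replicate number as a block, in a comparison whose same-numbered libraries deviated together, the NCED5 log2 fold change was 1.15 (edgeR adjusted p = 0.0616).

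ABA1, at the head of the pathway, was the only one of the 8 tested genes with a negative estimate in all 3 genotypes, and it passed the test in none. It stood at 291, 300 and 237 CPM in WT at control and at 228, 274 and 211 CPM under stress. In ahl10-1 the levels were 237, 326 and 377 CPM at control and 248.9, 316 and 302 CPM under stress. In rrp6l1-2 they were 399, 276 and 408 CPM at control and 272, 309 and 253 CPM under stress.

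Control and stress libraries of ABA1 overlapped in every genotype. The 5 leaf markers had median log2 fold changes of the same sign, given with the tissue markers. The log2 fold changes were -0.22 ± 0.175 in WT, -0.12 ± 0.174 in ahl10-1 and -0.38 ± 0.175 in rrp6l1-2 (edgeR adjusted p = 0.392, 0.648 and 0.115). The rrp6l1-2 interval ran from -0.76 to 0.00. Without rrp6l1-2 control replicate 2 the change was -0.56 and passed (edgeR adjusted p = 0.0256). The other 5 single omissions in rrp6l1-2 gave no call, with changes as small as -0.28 and edgeR adjusted p up to 0.317.

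ABA2, the dehydrogenase step, had small positive estimates of like size in the 3 genotypes. In WT it stood at 20.1, 18.4 and 19.5 CPM at control and at 23.4, 23.7 and 22.4 CPM under stress, without overlap. In ahl10-1 it stood at 17.0, 19.0 and 21.3 CPM at control and at 20.8, 21.8 and 24.7 CPM under stress. In rrp6l1-2 it stood at 18.1, 15.4 and 21.1 CPM at control and at 22.9, 20.4 and 21.9 CPM under stress. In both mutants control replicate 3 lay above the lowest stress library. Within each same-numbered pair the stress library was the higher, by 1.15 to 1.22 times in ahl10-1 and by 1.04 to 1.32 times in rrp6l1-2, where same-numbered libraries deviated together. The log2 fold changes were 0.26 ± 0.102 in WT, 0.23 ± 0.102 in ahl10-1 and 0.26 ± 0.102 in rrp6l1-2. None passed the threshold (edgeR adjusted p = 0.0731, 0.102 and 0.0695). In rrp6l1-2 the fit with the replicate number as a block gave 0.26 and a call (edgeR adjusted p = 0.0403), and without control replicate 3 the change was 0.37 (edgeR adjusted p = 0.0151). In ahl10-1 neither the block fit nor any single omitted library gave a call. The authors' deposited table for WT gave 0.26 with an adjusted p of 0.0103.

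AAO3 and ABA3, the last oxidation and the activation of its cofactor, rose in all 3 genotypes by a small amount with little spread. AAO3 stood at 19.5, 20.3 and 18.9 CPM in WT at control and at 23.3, 23.2 and 25.2 CPM under stress. In ahl10-1 it stood at 19.1, 19.6 and 20.6 CPM at control and at 25.1, 25.8 and 22.5 CPM under stress. In rrp6l1-2 it stood at 20.3, 19.5 and 20.5 CPM at control and at 26.1, 24.5 and 23.99 CPM under stress.

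Every AAO3 stress library lay above every control library of its genotype. The log2 fold changes were 0.29 ± 0.0627, 0.31 ± 0.0627 and 0.31 ± 0.0627 in WT, ahl10-1 and rrp6l1-2 (edgeR adjusted p = 0.00289, 0.00147 and 0.00189), and no single omitted library ended a call. Its within-group SD of 0.0666 log2 CPM placed AAO3 at the 8.49 percentile of the genes tested, against the 92.1 percentile of NCED3.

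ABA3 stood at 14.98, 13.9 and 15.97 CPM in WT at control and at 18.2, 17.1 and 19.2 CPM under stress. In ahl10-1 it stood at 15.8, 15.7 and 15.03 CPM at control and at 19.2, 17.9 and 17.0 CPM under stress. In rrp6l1-2 it stood at 15.2, 16.01 and 13.7 CPM at control and at 17.8, 17.7 and 18.5 CPM under stress. No control library reached a stress library of its genotype. The log2 fold changes were 0.28 ± 0.0730, 0.22 ± 0.0730 and 0.27 ± 0.0732 (edgeR adjusted p = 0.00954, 0.0339 and 0.0126). Unlike AAO3, ABA3 lost its call when single libraries were left out: in WT without control replicate 2 (adjusted p = 0.0541), in rrp6l1-2 without control replicate 3 or stress replicate 3 (0.0635 and 0.0652), and in ahl10-1 without any library other than stress replicate 3 (0.0602 to 0.172).

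**Figure D3:**
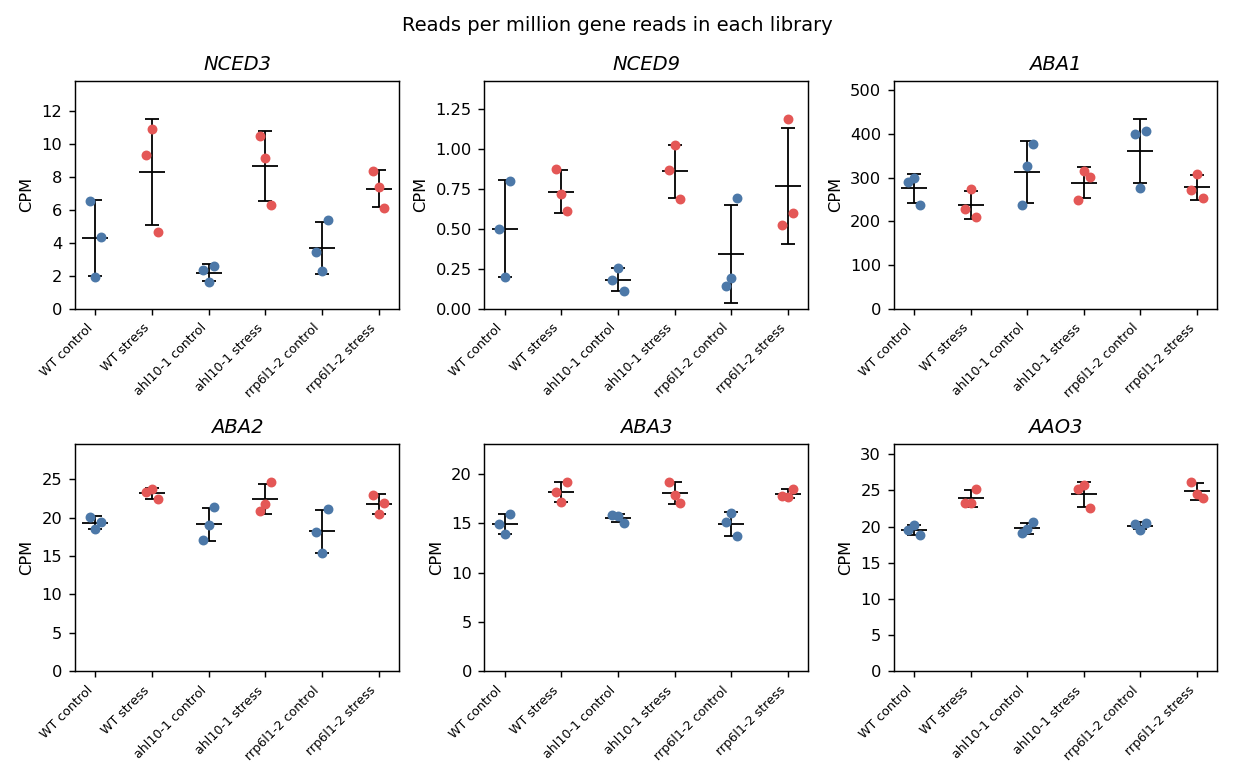
CPM of 6 genes in each library (points, blue for control and red for stress) with the group mean and SD (black, n = 3); each axis starts at 0. AAO3 and ABA3 stress libraries lie above their control libraries in each genotype, while NCED3 and NCED9 spread widely within groups.

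Counted over the pathway, ABA3 and AAO3 rose in WT, 2 of the 8 tested genes, where 12.6% of all tested genes rose and 26.1% were called in either direction. In ahl10-1, NCED3, NCED5, NCED9, ABA3 and AAO3 rose, 5 of 8, against 15.7% rising and 30.1% called. In rrp6l1-2, ABA3 and AAO3 rose, 2 of 8, against 14.9% rising and 29.5% called. None of the 8 fell in any genotype. The WT and rrp6l1-2 counts in either direction are near the share of all tested genes. The median log2 fold change of the 8 genes was 0.28 in WT, 0.44 in ahl10-1 and 0.42 in rrp6l1-2, and over all genes tested it was 0.00, 0.01 and 0.02. Leaving out replicate 1 in all groups at once ended all calls in ahl10-1 and rrp6l1-2 and left AAO3 in WT.

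The mean stress response over the 3 genotypes, a contrast added after the data had been seen, uses all 18 libraries. By it 7 of the 8 genes rose, where 27.6% of all tested genes rose and 54.3% were called. NCED3 rose by 1.31 ± 0.238 on the log2 scale (edgeR adjusted p = 0.000305), and NCED9 by 1.32 ± 0.317 (0.00229). ABA2, ABA3 and AAO3 rose by 0.25 ± 0.0590, 0.25 ± 0.0422 and 0.30 ± 0.0362 (edgeR adjusted p = 0.00207, 9.65e-05 and 3.67e-06). These 5 calls were kept when any 1 library was left out. NCED2 (0.65, adjusted p = 0.0489) and NCED5 (0.62, adjusted p = 0.0470) passed narrowly, and 13 and 14 of the 18 single omissions lost their calls. ABA1 was at -0.24 ± 0.101 (edgeR adjusted p = 0.0568). It was not called in 12 of the 18 single omissions, with changes as small as -0.19 and edgeR adjusted p up to 0.115. It passed when ahl10-1 control replicate 1, WT control replicate 3 or replicate 2 of WT stress, ahl10-1 stress, rrp6l1-2 control or rrp6l1-2 stress was left out, with a change down to -0.30, and by DESeq2 (-0.25, adjusted p = 0.0328).

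**Figure D4:**
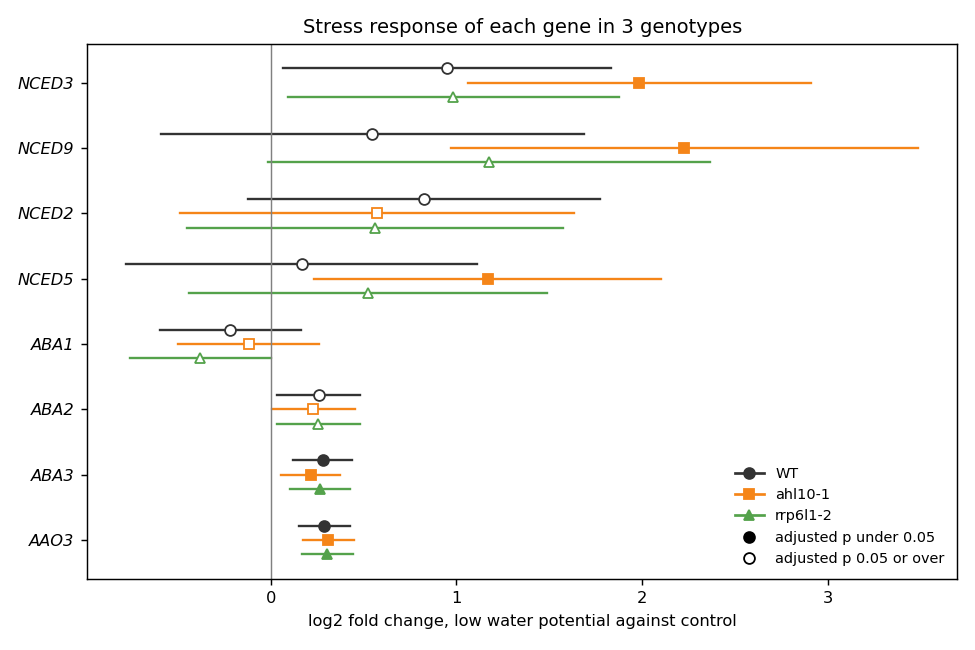
Log2 fold change at low water potential against control for 8 genes in WT, ahl10-1 and rrp6l1-2, with 95% intervals (n = 3 libraries a group; filled markers have an edgeR adjusted p under 0.05). The 4 NCED genes have wide intervals, and ABA3 and AAO3 lie between 0.22 and 0.31 with narrow ones.

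The second question of the design is whether either mutation changes these transcripts. None of the 8 tested genes was called in ahl10-1 against WT at control, where 0.0263% of all tested genes were called, or at stress, where 0.0351% were. None was called in rrp6l1-2 against WT at control (0.211% of all tested genes) or at stress (0.0834%). DESeq2 called 0 of the 8 in each of the 4 comparisons as well. At an unadjusted p under 0.05 there were 2 of the 8 in ahl10-1 at control, where 5.94% of all tested genes were, and 1 of the 8 in rrp6l1-2 at control, where 17.6% were, so that the 1 is no more than that share. There were 0 at stress in ahl10-1 (4.35% of all tested genes) and in rrp6l1-2 (3.77%).

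The 2 in ahl10-1 at control were NCED3 and NCED9. NCED3 averaged 2.19 ± 0.497 CPM there and 4.27 ± 2.29 CPM in WT (SD, n = 3), with overlapping libraries and a log2 fold change of -0.97 ± 0.421 (unadjusted p = 0.0360, edgeR adjusted p = 0.793). NCED9 averaged 0.180 ± 0.0720 CPM in ahl10-1 and 0.499 ± 0.301 CPM in WT, with a log2 fold change of -1.45 ± 0.590 (unadjusted p = 0.0255, edgeR adjusted p = 0.793). Under stress NCED3 averaged 8.64 ± 2.14 CPM in ahl10-1 and 8.28 ± 3.22 CPM in WT, a log2 fold change of 0.06 with a 95% interval from -0.80 to 0.93. The 1 in rrp6l1-2 at control was ABA1, at 361 ± 73.7 CPM against 276 ± 33.7 CPM in WT. Its log2 fold change was 0.39 ± 0.175 (unadjusted p = 0.0414, edgeR adjusted p = 0.263). In the same comparison the 5 leaf markers had a median log2 fold change of 0.59, with 3 at an unadjusted p under 0.05 and 0 called. Their summed level was 33920 to 44370 CPM in rrp6l1-2 control and 24950 to 32510 CPM in WT control, and its part in the ABA1 difference was not tested. In the authors' deposited tables for the mutants no abscisic acid synthesis gene had an adjusted p under 0.05.

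Estimates for the other genes are given as log2 fold changes at control and then at stress. For NCED2 they were -0.58 and -0.83 in ahl10-1 and -0.23 and -0.49 in rrp6l1-2, all negative, with intervals that include 0. For NCED5 they were -0.32 and 0.68 in ahl10-1 and -0.16 and 0.20 in rrp6l1-2. ABA2 lay within 0.09 of WT on the log2 scale throughout, at -0.02 and -0.05 in ahl10-1 and at -0.09 and -0.09 in rrp6l1-2. ABA1 was at 0.18 and 0.28 in ahl10-1 and at 0.23 in rrp6l1-2 under stress. NCED9 was at 0.23 in ahl10-1 under stress and at -0.56 and 0.07 in rrp6l1-2. NCED6, with 0 reads, gave no estimate in any comparison.

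AAO3 and ABA3 give the tightest bounds on a mutant effect. For AAO3 the 95% interval of the log2 fold change was -0.12 to 0.15 in ahl10-1 and -0.10 to 0.18 in rrp6l1-2 at control. Under stress it was -0.10 to 0.17 and -0.08 to 0.19. For ABA3 the control intervals were -0.11 to 0.21 and -0.16 to 0.16, and under stress its log2 fold changes were -0.01 and -0.02. For NCED3 the control intervals were far wider, -1.89 to -0.06 and -1.11 to 0.68, and under stress in rrp6l1-2 it was at -0.19.

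Whether the stress response itself differed from WT was tested as an interaction. None of the 8 genes was called for either mutant, nor was any other tested gene (0% of all tested genes by edgeR), while DESeq2 called 3 genes for ahl10-1 and 1 for rrp6l1-2, none of them an abscisic acid synthesis gene. At an unadjusted p under 0.05 there was 1 of the 8 for ahl10-1, NCED9, where 1.39% of all tested genes were, and 0 for rrp6l1-2, where 1.68% were. The NCED9 response was larger in ahl10-1 than in WT by 1.68 ± 0.778 on the log2 scale (unadjusted p = 0.0463, edgeR adjusted p = 1; 95% interval -0.01 to 3.38). For NCED3 the difference was 1.03 ± 0.578 (95% interval -0.22 to 2.29). For NCED5 it was 1.00 ± 0.613 (95% interval -0.33 to 2.34). So the NCED3, NCED5 and NCED9 calls in ahl10-1 alone were not shown to differ from the WT response. For rrp6l1-2 the NCED3 difference was 0.03 ± 0.571 (95% interval -1.21 to 1.28). The NCED9 difference was 0.63, that of NCED5 0.36, and that of NCED2 -0.26, against -0.25 for NCED2 in ahl10-1. The differences for ABA1, ABA2 and ABA3 were 0.10, -0.03 and -0.06 in ahl10-1 and -0.16, 0.00 and -0.02 in rrp6l1-2. For AAO3 the differences were 0.02 in both mutants, with 95% intervals from -0.17 to 0.21 in ahl10-1 and from -0.18 to 0.21 in rrp6l1-2. A p that misses the threshold does not show that the genotypes respond alike.

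Around these genes, the lists of other pathway genes were described with the same test. Carotenoid synthesis genes fell or were not called: of 13, 0 rose, and 1, 6 and 8 fell in WT, ahl10-1 and rrp6l1-2, where 13.4%, 14.4% and 14.7% of all tested genes fell. The WT count is below that share. Their median log2 fold changes were -0.23, -0.31 and -0.40. LCYB, lycopene beta-cyclase, fell by 0.46 ± 0.108, 0.52 ± 0.108 and 0.64 ± 0.108 on the log2 scale (edgeR adjusted p = 0.00495, 0.00174 and 0.000426). NPQ1, violaxanthin de-epoxidase, which runs opposite to ABA1, fell in ahl10-1 (-0.36) and rrp6l1-2 (-0.45) and stood at -0.26 in WT (edgeR adjusted p = 0.0648). CRTISO, carotenoid isomerase, fell in the same 2 genotypes (-0.27 and -0.35).

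Of 8 genes of the plastid isoprenoid pathway that feeds carotenoids, 1, 1 and 3 fell and 0 rose, among them HDR, the last reductase, in each genotype (-0.43, -0.46 and -0.49). The counts of 1 of 8 in WT and ahl10-1 are near the share of all tested genes that fell. Among 4 other carotenoid cleavage genes, CCD8, a strigolactone synthesis gene, fell in WT (-0.78) and ahl10-1 (-0.64). CCD4 rose in ahl10-1 (0.47). Of all tested genes 13.4% and 14.4% fell in WT and ahl10-1, and 15.7% rose in ahl10-1. None of the 4 was called in rrp6l1-2 (1 at an unadjusted p under 0.05, as were 41% of all tested genes).

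The relatives of AAO3 moved in different directions. AAO2, an aldehyde oxidase, fell in each genotype (-0.43 ± 0.0596, -0.37 ± 0.0596 and -0.44 ± 0.0597; edgeR adjusted p = 7.04e-05, 0.000248 and 5.33e-05). AAO4 rose in WT (1.49 ± 0.447), XDH1 rose in ahl10-1 (0.21), and AAO1 and XDH2 were not called. Of 6 molybdenum cofactor genes, CNX3 was the only one called in each genotype, and it rose (0.17, 0.23 and 0.28). Of all tested genes 12.6%, 15.7% and 14.9% rose and 13.4%, 14.4% and 14.7% fell in WT, ahl10-1 and rrp6l1-2. The molybdenum cofactor count is near the share that rose.

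Genes that remove or release abscisic acid moved in both directions. BGLU18, a glucosidase that frees abscisic acid from its glucose ester, rose most, from 223 ± 73.7 to 1708 ± 553 CPM in WT (log2 fold change 2.94 ± 0.373, edgeR adjusted p = 4.72e-05). It rose by 2.91 and 2.81 in ahl10-1 and rrp6l1-2. CYP707A1, an abscisic acid 8'-hydroxylase that starts its breakdown, rose by 0.89, 1.12 and 0.62. CYP707A4 rose in WT (1.10) and ahl10-1 (0.88). CYP707A3, of the same hydroxylase family, went the other way. It fell in WT, from 4.89 to 71.2 CPM in the control libraries to 3.16 to 3.34 CPM under stress (log2 fold change -3.22 ± 0.868, edgeR adjusted p = 0.0151). It stood at -1.24 in ahl10-1 (edgeR adjusted p = 0.299) and at -2.35 in rrp6l1-2 (edgeR adjusted p = 0.0527), with control libraries that also spread widely, from 3.27 to 10.4 CPM and from 4.38 to 30.2 CPM. UGT71C5, which glucosylates the hormone, fell in WT (-0.37) and ahl10-1 (-0.33) and stood at -0.19 in rrp6l1-2. Of these 8 genes 3 rose in each genotype, and 2, 1 and 0 fell. Of all tested genes 12.6%, 15.7% and 14.9% rose and 13.4%, 14.4% and 14.7% fell. The count of 1 that fell in ahl10-1 is near that share.

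Of 6 transporter genes 0 rose, and 3, 2 and 3 fell, where 13.4%, 14.4% and 14.7% of all tested genes fell. NPF4.6, an importer, fell by 0.42, 0.46 and 0.42 and ABCG31, an exporter, by 0.68, 0.50 and 0.74 in WT, ahl10-1 and rrp6l1-2. DTX50, another exporter, fell most in WT (-2.78) and rrp6l1-2 (-2.72) and stood at -1.69 in ahl10-1 (edgeR adjusted p = 0.0711). Among 6 genes known to act on NCED3 expression, 2 rose in each genotype, where 12.6%, 15.7% and 14.9% of all tested genes rose. ATAF1, a NAC factor, rose by 0.59, 0.71 and 0.60, and WRKY57 by 0.56, 0.69 and 0.57. BAM1, a receptor kinase, fell (-0.22, -0.29 and -0.22). NGA1, ATX1 and BAM3 were not called in any genotype.

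**Figure D5:**
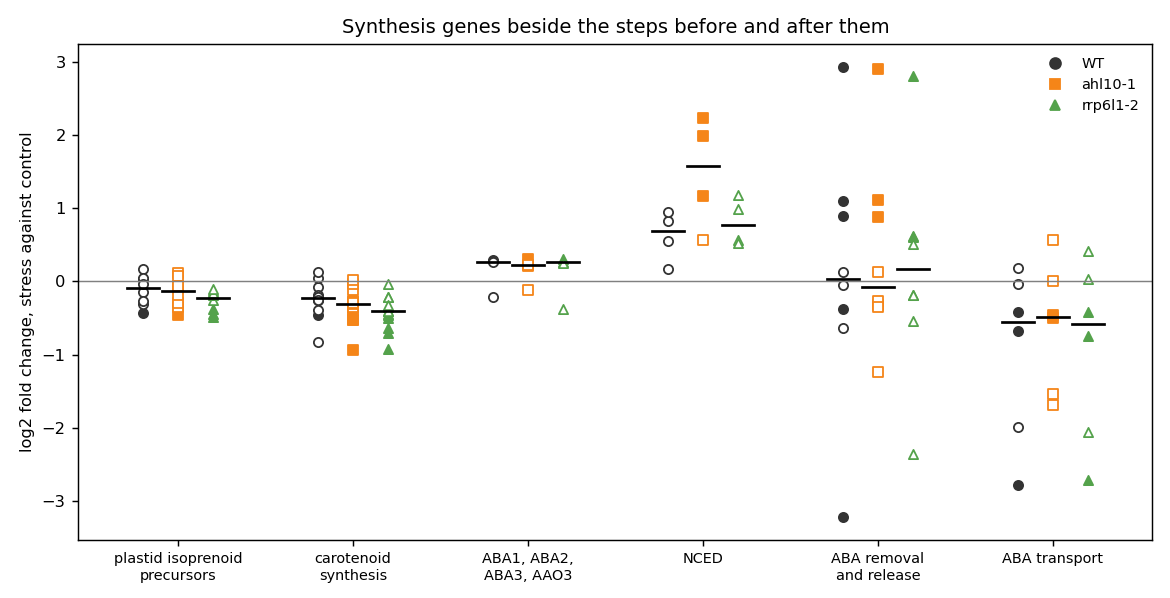
Log2 fold change at low water potential against control for each gene of 6 lists (points, by genotype; filled where the edgeR adjusted p is under 0.05), with the list median as a bar. The NCED medians lie above 0 and the carotenoid synthesis medians, at -0.23, -0.31 and -0.40, below it.

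In none of the 4 comparisons of a mutant with WT, and in neither interaction, was a gene of these lists called, apart from AHL10 and RRP6L1 themselves. In rrp6l1-2 against WT at control all 13 carotenoid synthesis estimates were positive, with a median log2 fold change of 0.34, and 10 of the 13 had an unadjusted p under 0.05. Of the 8 plastid isoprenoid genes 5 did, with a median of 0.30, where 17.6% of all tested genes did. DESeq2 called 2 of the 13, CRTISO and NPQ1, and 2 of the 8, DXR and HDS, all higher in rrp6l1-2, along with the leaf markers GLDP1 and CA1, the seed marker CRA1 (higher) and the root marker PLT1 (lower). With the replicate number as a block, in a comparison whose same-numbered libraries deviated together, edgeR called DXR alone. In ahl10-1 against WT at control the 13 estimates were positive as well, with a median of 0.23, and 5 had an unadjusted p under 0.05, against 5.94% of all tested genes. These comparisons share the WT control libraries.

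Markers of the tissues in a seedling also moved. The 5 leaf and the 5 root markers had reads in every group. All 5 leaf markers had negative estimates in each genotype, with median log2 fold changes of -0.20, -0.31 and -0.55 in WT, ahl10-1 and rrp6l1-2, and RCA in rrp6l1-2 was the one call (-0.71, edgeR adjusted p = 0.0422). Their summed level was 24950 to 44370 CPM at control and 22980 to 34710 CPM under stress. Of the root markers 0, 1 and 0 fell and 0 rose, where 13.4%, 14.4% and 14.7% of all tested genes fell. The same shares stand beside the guard cell and vascular markers that follow. NCED3 and AAO3 are known from vascular tissue and AAO3 also from guard cells. Of 4 guard cell markers, KAT1, MYB60 and AT1G22690 fell in each genotype, and FAMA was not called. Their summed level was 97.1 to 151 CPM at control and 40.7 to 61.6 CPM under stress. Of 5 vascular markers, the phloem transporter genes SUC2 (-0.56, -0.61 and -0.64) and SWEET11 (-0.84, -0.89 and -0.86) fell, and APL, SWEET12 and XCP1 were not called. The vascular sum was 467 to 642 CPM at control and 353 to 437 CPM under stress. The part of these shifts in the changes of NCED3, ABA3 and AAO3, in the ABA1 estimates and in those of the carotenoid genes was not tested.

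Across the 18 libraries, NCED3 and NCED9 log2 CPM correlated with r = 0.833, a description over libraries that share treatments and depth. As deviations from group means the correlation was 0.520. ABA1 and ABA3 deviations ran opposite (r = -0.760), and so did those of ABA2 and ABA3 (r = -0.617), while ABA1 and ABA2 deviations ran together (r = 0.662). These were the largest in size among all pairs of the tested synthesis genes. How often other gene pairs reach such values was not tested. Over the same libraries, the tested genes with the pattern most like NCED3 were PUB19 (r = 0.958), ERD10 (0.954) and ABF3 (0.937). Those most like NCED9 were NET4A (0.914), AT5G59490 (0.910) and ABIL3 (0.898). For ABA1 they were SPD1 (0.969), ABCF5 (0.963) and ATH13 (0.959), and for ABA2 they were IBR10 (0.872), AT2G27130 (0.863) and SKIP16 (0.855). For ABA3 they were EDA18 (0.941), PUT2 (0.941) and MSL4 (0.940), and for AAO3 they were BGLU10 (0.966), LACS8 (0.960) and ABCC8 (0.957). The low counts of NCED2 and NCED5 gave 0.849 and 0.804 at most.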

How the data were processed

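The authors deposited 1 table per library that, per the file headers, holds expected counts per gene, RPKM, the fraction of multi-mapped reads, and other columns such as gene length. The authors' 5 comparison tables hold, per the file headers, log2 fold changes, a test statistic (a score) and p-values. The submitters' processing notes name Bowtie2, DESeq2, bcl2fastq 1.8.4, CASAVA and TAIR10 without roles. Neither a counting tool nor its use of strand is given in the sources used here. The library kit marks strand, per the labels' protocols. No coordinates are in the files: those printed, and the sequences, are RefSeq's on TAIR10.1. Unused per-sample columns numbered 0. The RPKM denominators were 62751918 to 73864892 reads, above the 57996104 to 68555138 reads in genes, so RPKM rests on a wider library total than CPM does.

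Expected counts were rounded and fitted with edgeR 4.0.16 in R 4.3.3 (glmQLFit robust, glmQLFTest): 18 libraries, 6 group means, 12 residual degrees of freedom, TMM factors of 0.901 to 1.07, filterByExpr by group, Benjamini-Hochberg adjustment over 22795 genes, called under 0.05. Intervals use 12 degrees of freedom and can be slightly wider than the test. The biological coefficient of variation was 14.4%. The fitting functions were run on simulated data with 200 changed genes, for the WT stress comparison only. The simulation gave every gene the same spread and changed only better expressed genes. It therefore says nothing on calls of genes with few reads or a wide spread, such as the NCED genes. Alternatives used DESeq2 1.42.0, limma 3.58.1 on log2(RPKM + 0.5) and log2(RPKM + 0.1), other scalings and filters, the replicate number as a block and single libraries left out. DESeq2's missing adjusted p-values were kept as missing. Python 3.11.15 and matplotlib 3.10.9 were used for tables and figures.

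The genes and lists were chosen with earlier results of these data known. Values of the 8 tested genes are given in every comparison. From each other list up to 3 called genes with the smallest adjusted p per stress comparison are named, and others only to account for a list. Likeness is Pearson's r of log2 CPM with a prior count of 2. Deviations of same-numbered libraries from their group means correlated above 0.1 in every pair in 3 comparisons, ahl10-1 stress against control (lowest 0.205), rrp6l1-2 stress against control (0.123) and rrp6l1-2 against WT at control (0.198). The labels do not say what the numbers share. Each p-value of the main fit weighs a group difference against the spread among these libraries, estimated over all groups and moderated over genes. The floor of 3 reads for a count of 0 covers counting error alone, because PCR duplicates could not be told from separate molecules.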

Additional observations from a re-analysis of the deposited data

How the results depend on the processing

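No value of an abscisic acid synthesis gene that was called changed direction under any alternative. The number of called genes moved, and the cause was not tested except where named. In WT under stress it was 2, and leaving out replicates gave 1 to 3. In ahl10-1 under stress it was 5, with 3 when no filter on low counts was used, 3 with a CPM of at least 1 in 3 libraries, which removes NCED2, NCED5 and NCED9 from the test, and 3 with only the groups compared in the fit, and leaving out replicates gave 0 to 4. In rrp6l1-2 under stress it was 2, with 4 by limma on log2(RPKM + 0.5) and 4 on log2(RPKM + 0.1), and leaving out replicates gave 0 to 4. For the mean response it was 7, with 4 under the CPM filter, and leaving out replicates gave 5 to 7. Leaving out replicate 1 in every group, which leaves 2 libraries a group, gave 1, 0, 0 and 5 in these 4 comparisons. The counts in the mutant comparisons and interactions were 0 under every alternative run.

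With the replicate number as a block the counts were 3 in WT (ABA2 added; edgeR adjusted p = 0.0444), 4 in ahl10-1 (NCED5 lost), 3 in rrp6l1-2 (ABA2 added) and 6 for the mean response (NCED5 lost), and 0 elsewhere. The block raised the count over all genes for rrp6l1-2 against WT at control from 48 to 148. In WT the numbers did not pair the libraries by the correlation of deviations, so the block there is a check only. DESeq2 called more genes over the whole table than edgeR in the mutant comparisons: 21 against 6 and 27 against 8 for ahl10-1 at control and stress, and 804 against 48 and 56 against 19 for rrp6l1-2. Fits of only the groups compared gave 5 for ahl10-1 at stress, and 24 and 40 for rrp6l1-2 at control and stress. Without replicate 1 the whole-table counts were 3047 in WT under stress against 5941, 4016 in rrp6l1-2 under stress against 6733, and 4, 29 and 9 for ahl10-1 at stress and rrp6l1-2 at control and stress. Depth limits NCED2, NCED5 and NCED6 most, with at most 24, 16 and 0 reads in a library. Plain library sizes, which leave out the TMM scaling, gave 3, 6 and 3 called genes in the stress comparisons, with ABA2 added in each.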
